A study of Mus musculus with 6 samples.

Results

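The 9 genes described here encode the subunits of HOPS and CORVET, the tethering complexes of endosomes and lysosomes, together with Vps33b, a relative of one of them. They were chosen by symbol, a rule that uses no measured value, from array clusters whose platform annotation gives a single gene symbol. The list was nonetheless drawn up with earlier results of these data known. All 9 were found, each with 1 transcript cluster, among 16583 genes. RNA came from 6 samples of Neuro2a cells, which derive from a mouse neuroblastoma and serve to model neurons in culture, and each was read on 1 Affymetrix Mouse Gene 1.0 ST array. Of these, 3 (USFKD in the labels) came from cells given RNA interference vectors of the microRNA type that target Usf1 and Usf2, and 3 (Control) from cells given an empty vector. The encoded USF proteins are transcription factors of the helix-loop-helix zipper class and recognise a short DNA element, the E-box. The vectors were introduced by lipofection and the labels mention no selection of transfected cells. A change in fewer cells therefore cannot be told apart from a smaller change in every cell. Although titled biological replicates, the samples are not described as separate cultures, and the p-values therefore reflect array-to-array spread that could be technical.

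Tethering complexes hold a vesicle close to its target membrane before fusion, under the control of small GTPases, and help SNARE proteins to assemble. CORVET acts on early endosomes with Rab5, while HOPS acts on late endosomes, autophagosomes and lysosomes with Rab7 and other small GTPases. Both are built on the same core of Vps11, Vps16, Vps18 and Vps33a. HOPS adds Vps39 and Vps41, and CORVET adds Tgfbrap1 and Vps8 at the equivalent positions.

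No subunit passed the test over all genes after USF knockdown. Of the 9 genes, 0 were called at an adjusted p of 0.05 in limma, against 0.00603% of all genes (1 of 16583), and each had an adjusted p of 0.996. The estimates farthest from 0 were those of the 2 CORVET-specific subunits, and they had opposite signs. Tgfbrap1 lay lower in knockdown cells (0.884-fold) and Vps8 higher (1.10-fold), both at an unadjusted limma p under 0.05, a level that 4.25% of all genes reached. The 95% confidence intervals of the 9 changes lay within 0.816-fold and 1.20-fold. Changes beyond these bounds, as read by an array that can compress folds, lay outside the interval of every member.

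The signal is given on a log2 scale relative to the gene's own median over the 6 arrays, which permits comparison of 1 gene across arrays and gives no absolute level. Knockdown array 2 was spread more widely than the others, with a standard deviation over all clusters of 0.159 against 0.0531 to 0.0780 on the other 5. On that array, clusters in the brighter class (uncentred log2 values of 8 to 16, as read from the rounding of the numbers) had a median of -0.03 and those in the dimmer class (4 to 8) 0.07. All members but Vps18 lay in the brighter class. Of the markers of sympathetic neuroblastoma, 7 of the 9 measured were in the brighter class, all but Th and Dbh, against 1 of 19 markers of glia, fibroblasts, macrophages and endothelium (Kdr). Usf1 had a relative log2 signal of -0.281, -0.180 and -0.262 on the knockdown arrays and 0.180, 0.322 and 0.429 on the empty vector arrays. Usf2 had -0.220, -0.132 and -0.118 on the knockdown arrays and 0.118, 0.276 and 0.266 on the empty vector arrays. Each target was lower on every knockdown array than on any empty vector array. An exact two-sided permutation test gave p = 0.1 for both, the lowest value that 3 arrays per group allow. Their changes were -0.55 ± 0.07 and -0.38 ± 0.06 (SE, limma adjusted p = 0.320 and 0.348).

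The promoters are shown because the question of the study is which genes USF factors act on, and because the members differ in the letters they hold there. RefSeq (GRCm38.p6) gave promoter windows of 300 bases, 250 before to 50 after a transcription start, for 6 members. Vps11, Vps39 and Vps33b had no entry. The motif CACGTG, the E-box preferred by USF and by related factors, reads the same on both strands. In the windows below it is in capitals. Vps16 (chr2:130424070-130424369, plus strand) held 1 copy whose first base lay 18 bases before the start. Vps33a (chr5:123572966-123573265, minus strand) held 2 copies, 28 and 12 bases before it. Tgfbrap1 has 2 starts in the table. The upstream one (chr1:43098579-43098878, minus strand) held 0 copies, and the other (chr1:43092437-43092736, minus strand) 1 copy, which began 1 base before the start and so spanned it. Vps8 (chr16:21422868-21423167, plus strand) and Vps41 (chr13:18717042-18717341, plus strand) held 0, as did Vps18, which is not shown.
Vps16: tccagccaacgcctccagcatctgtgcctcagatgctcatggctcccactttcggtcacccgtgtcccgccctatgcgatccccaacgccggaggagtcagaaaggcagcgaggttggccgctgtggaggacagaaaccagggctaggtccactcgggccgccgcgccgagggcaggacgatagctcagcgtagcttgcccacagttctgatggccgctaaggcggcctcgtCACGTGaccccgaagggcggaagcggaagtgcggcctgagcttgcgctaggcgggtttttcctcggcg
Vps33a: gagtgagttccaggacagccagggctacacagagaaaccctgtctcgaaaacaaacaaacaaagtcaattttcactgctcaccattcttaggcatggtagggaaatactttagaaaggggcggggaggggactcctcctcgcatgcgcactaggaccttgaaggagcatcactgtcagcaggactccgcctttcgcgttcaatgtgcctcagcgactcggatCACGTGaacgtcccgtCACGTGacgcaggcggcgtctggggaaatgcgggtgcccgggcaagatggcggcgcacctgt
Tgfbrap1 upstream start: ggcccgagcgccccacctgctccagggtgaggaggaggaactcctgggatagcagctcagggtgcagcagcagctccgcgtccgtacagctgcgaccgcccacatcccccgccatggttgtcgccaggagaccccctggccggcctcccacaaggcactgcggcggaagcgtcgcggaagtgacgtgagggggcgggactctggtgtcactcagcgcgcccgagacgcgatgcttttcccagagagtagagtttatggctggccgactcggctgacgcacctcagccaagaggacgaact
Tgfbrap1 downstream start: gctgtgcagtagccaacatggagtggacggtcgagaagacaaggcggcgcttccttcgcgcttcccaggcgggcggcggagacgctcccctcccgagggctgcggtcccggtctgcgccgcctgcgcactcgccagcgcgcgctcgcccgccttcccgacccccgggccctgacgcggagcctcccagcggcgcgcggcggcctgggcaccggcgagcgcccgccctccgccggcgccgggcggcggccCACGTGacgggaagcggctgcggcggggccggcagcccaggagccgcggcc
Vps8: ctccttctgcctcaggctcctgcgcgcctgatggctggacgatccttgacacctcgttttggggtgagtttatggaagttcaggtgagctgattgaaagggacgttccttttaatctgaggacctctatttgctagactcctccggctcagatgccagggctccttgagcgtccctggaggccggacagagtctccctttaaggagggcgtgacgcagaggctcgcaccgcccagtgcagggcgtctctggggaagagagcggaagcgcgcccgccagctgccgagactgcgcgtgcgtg
Vps41: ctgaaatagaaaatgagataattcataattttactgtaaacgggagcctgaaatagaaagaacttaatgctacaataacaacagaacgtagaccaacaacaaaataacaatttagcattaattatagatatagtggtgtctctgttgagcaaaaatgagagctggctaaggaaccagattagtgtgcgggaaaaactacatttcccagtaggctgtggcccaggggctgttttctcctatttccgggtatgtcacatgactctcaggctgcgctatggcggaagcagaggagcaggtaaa

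So 3 of the 6 members with a window held CACGTG. It was in 7.15% of all 32851 windows in the table and 8.09% of the 27025 genes counted over all their starts. Those shares include genes not analysed on the array. Of the array genes with a window, 1383 held it and 11649 did not, a larger share than the 8.09%. In the brighter class, which holds all members but Vps18, 763 did and 5209 did not, a larger share again. The copy in Vps16 and both copies in Vps33a had T before and A after the motif, a form found in 0.974% of all windows. The copy in Tgfbrap1 was preceded by C and followed by A. TCACGTG, searched on both strands as part of these copies, was in the windows of the same 3 genes and in 3.77% of all windows. The looser E-box CANNTG, which contains CACGTG, was in every member window, with 1 to 3 copies each, and in 72.3% of all windows. The member windows were 40.7% G and C in Vps41, 56.7% in Vps33a and 61.0% to 79.7% in the others, against a median of 52.7% over all windows. A match of letters is a description and no binding was measured here.

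The core shared by both complexes had estimates on both sides of 0, and the groups overlapped for all 4 genes. Vps11 (cluster 10592830), a scaffold subunit, had relative log2 signals of 0.074, -0.00077 and 0.032 on knockdown arrays 1, 2 and 3, against -0.026, -0.059 and 0.00077 on empty vector arrays 1, 2 and 3. Its knockdown arrays 1 and 3 were above every empty vector array, and array 2 was just below empty vector array 3. Their means were 0.035 ± 0.037 in knockdown cells and -0.028 ± 0.030 with empty vector (SD, n = 3 each), a change of 0.06 ± 0.04 (SE, exact permutation p = 0.2). Vps18 (cluster 10474950), which pairs with Vps11 in the core and was the one member in the dimmer class, had 0.016, 0.089 and -0.016 on the knockdown arrays and -0.101, -0.057 and 0.082 on the empty vector arrays. Empty vector array 3 was above knockdown arrays 1 and 3, and the change was 0.05 ± 0.06 (SE, exact permutation p = 0.4). It was 0.108 without that array and 0.017 without empty vector array 1.

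Vps33a and Vps16 form the part of the core that handles SNAREs. Vps33a is a Sec1/Munc18 protein that holds SNAREs together, and Vps16 anchors it in the complex. Vps16 (cluster 10476136) had -0.019, -0.110 and 0.020 on the knockdown arrays and -0.012, 0.016 and 0.012 on the empty vector arrays. The empty vector values were close together (SD 0.015, n = 3), and the value that stood apart was that of knockdown array 2, the array with the wide spread. Its change was -0.04 ± 0.05 (SE, exact permutation p = 0.5), and -0.0050 without that array. Vps33a (cluster 10533644) had 0.032, -0.048 and -0.0071 on the knockdown arrays and 0.0071, -0.017 and 0.078 on the empty vector arrays. Here the values were interleaved, and the change was -0.03 ± 0.05 (SE, exact permutation p = 0.5), lying between -0.050 (without empty vector array 2) and -0.0026 (without empty vector array 3) when single arrays were left out. Vps16 and Vps33a are also the members whose promoter windows hold the flanked motif shown above, and their estimates were, over all 6 arrays, the 2 nearest to 0 among the 6 members with a window.

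The HOPS-specific subunits had estimates of nearly the same size, both above 0. Vps41 (cluster 10403765), which binds the lysosomal GTPase ARL8 in human cells and links HOPS to it, had 0.051, 0.0073 and 0.016 on the knockdown arrays and -0.025, -0.0073 and -0.071 on the empty vector arrays. Every knockdown value exceeded every empty vector value. Its mean was 0.025 ± 0.023 in knockdown cells and -0.034 ± 0.033 with empty vector (SD, n = 3 each). The change was 0.06 ± 0.04 (SE, exact permutation p = 0.1), with a 95% interval of -0.04 to 0.16 that included 0. Vps39 (cluster 10486469), whose yeast counterpart binds the Rab7 homologue, had 0.0063, 0.0049 and -0.0049 on the knockdown arrays and -0.089, -0.095 and 0.0055 on the empty vector arrays. The knockdown arrays were close together (SD 0.0061, n = 3), empty vector arrays 1 and 2 lay lower, and empty vector array 3 lay among the knockdown values. The change of Vps39 was 0.06 ± 0.04 (SE, exact permutation p = 0.3).

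**Figure D1:**
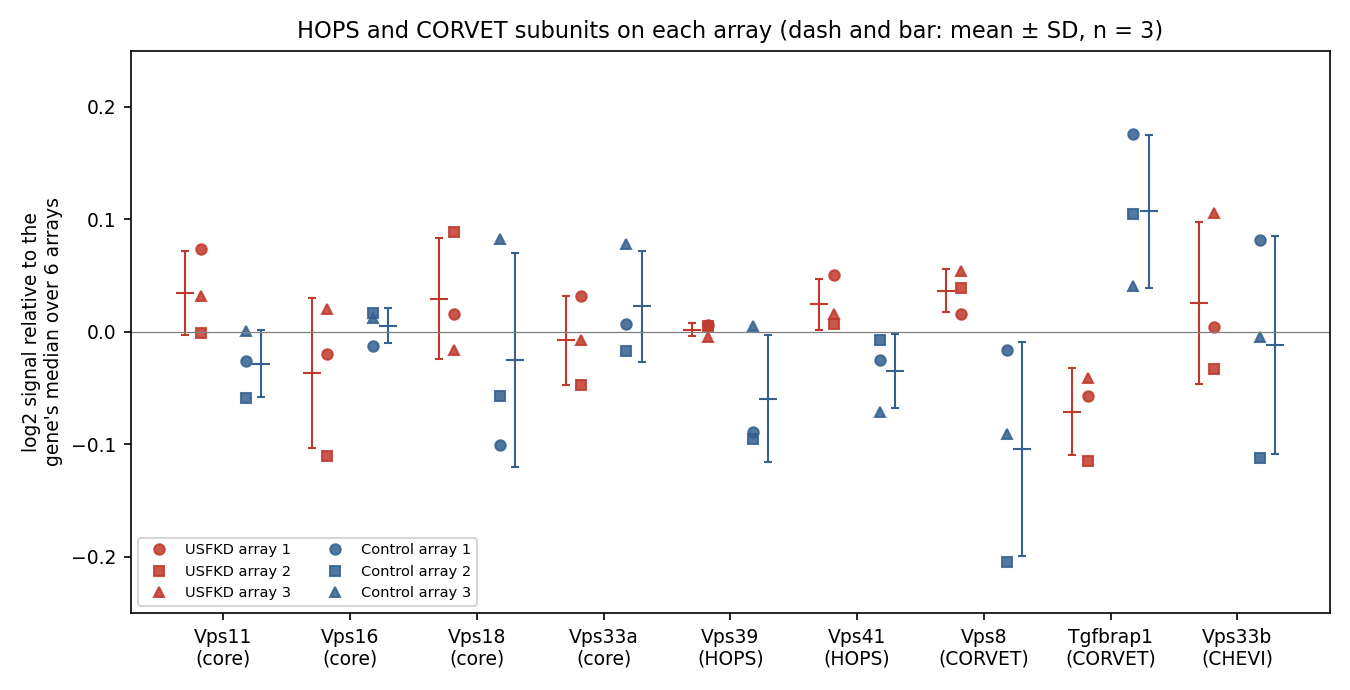
Relative log2 signal (vertical axis, log2 scale relative to the gene's median over 6 arrays) of the 9 genes on each of the 3 knockdown arrays (red, left of each pair) and 3 empty vector arrays (blue, right), with the mean and SD (n = 3) beside the points. The groups do not overlap for Vps41, Vps8 and Tgfbrap1, and Tgfbrap1 is the one of these with the knockdown arrays below.

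The CORVET-specific subunits gave the largest estimates among the 9 genes. Tgfbrap1 (cluster 10354233), the mammalian counterpart of yeast Vps3, was first described as a protein that binds TGF-beta receptors. Its values were -0.057, -0.115 and -0.041 on the knockdown arrays and 0.176, 0.105 and 0.041 on the empty vector arrays. No knockdown value reached the lowest empty vector value, and Tgfbrap1 was the lowest of the 9 genes on each knockdown array and the highest on empty vector arrays 1 and 2. As each gene is set relative to its own median, that ranking restates the size of the change and gives no level. Tgfbrap1 averaged -0.071 ± 0.039 in knockdown cells and 0.107 ± 0.068 with empty vector (SD, n = 3 each). The change was -0.18 ± 0.05 (SE, 95% interval -0.29 to -0.06, limma adjusted p = 0.996), and the gene ranked 120 by p among the 16583 genes. Leaving out each array in turn, the unadjusted p stayed under 0.05 in 6 of 6 fits, with changes of -0.21 to -0.14.

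Vps8 (cluster 10434577), the other CORVET-specific subunit, had 0.016, 0.039 and 0.054 on the knockdown arrays and -0.016, -0.205 and -0.091 on the empty vector arrays. The knockdown values were all higher, by 0.033 at the nearest, and the spread was wider with empty vector. It averaged 0.037 ± 0.019 in knockdown cells and -0.104 ± 0.095 with empty vector (SD, n = 3 each). Its change was 0.14 ± 0.06 (SE, 95% interval 0.01 to 0.27, limma adjusted p = 0.996), and it ranked 490 by p. The unadjusted p stayed under 0.05 in 2 of 6 fits that left out 1 array. It was above 0.05 when knockdown array 1 or 3 or empty vector array 2 or 3 was left out, with a change of 0.09 without empty vector array 2. The exact permutation test gave p = 0.1 for Vps8 and for Tgfbrap1, the lowest value possible here.

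Vps33b, a relative of Vps33a that belongs to neither complex, works with Vipas39 in a separate complex called CHEVI. Vps33b (cluster 10554419) had 0.0045, -0.033 and 0.106 on the knockdown arrays and 0.082, -0.112 and -0.0045 on the empty vector arrays. The groups overlapped over most of their range and the change was 0.04 ± 0.06 (SE, exact permutation p = 0.6). Its sign turned when knockdown array 3 (-0.0026) or empty vector array 2 (-0.013) was left out. Its partner Vipas39 had a change of -0.07 ± 0.06 (SE), with overlapping groups.

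Read over all 9 genes, the groups did not overlap for 3, with 2 higher and 1 lower in knockdown cells. Over all genes this was so for 10.3% (4.33% higher, 5.95% lower), and for 14.1% of the genes in the brighter class. At an unadjusted limma p under 0.05 there were 1 higher and 1 lower, against 1.6% and 2.65% of all genes. Estimates were above 0 for 6 members and below 0 for 3, where 49.6% of all genes were above 0. The median change of the members was 0.05, against -0.000665 over all genes and -0.011 over the brighter class. On knockdown arrays 1, 2 and 3 the members' median against the empty vector mean was 0.041, 0.027 and 0.050. All 3 are set against the same empty vector mean, and the brighter class as a whole stood at -0.037 on array 2. The members' median signal itself was 0.016, -0.00077 and 0.016 on the knockdown arrays. On empty vector arrays 1, 2 and 3 it was -0.016, -0.057 and 0.0055. Knockdown array 2 thus lay below empty vector array 3, and the groups of medians overlapped. With counts this small, no share of the members is set apart from the background by a test. Residual standard deviations were below the median of all genes (0.0703) for 7 of the 9, with Vps18 and Vps33b above it. That median covers both classes, whereas 8 of the 9 members are in the brighter class, for which no median was taken.

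**Figure D2:**
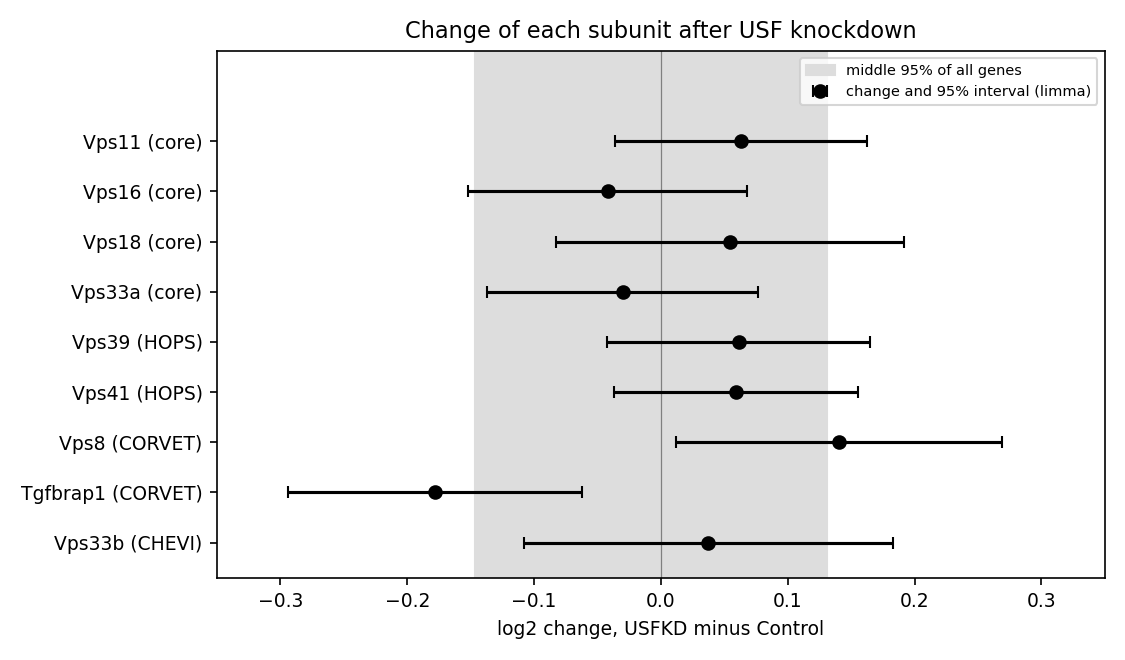
Change of each subunit after knockdown (horizontal axis, log2, USFKD minus Control) with its 95% interval from limma, and in grey the middle 95% of the changes of all genes (-0.15 to 0.13). The points of Tgfbrap1 and Vps8 lie outside the grey band on opposite sides, and the intervals of the other 7 genes include 0.

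The estimates and the promoter motif were then set side by side, a comparison made after both had been seen. The 3 members with CACGTG in a window (Vps16, Vps33a and Tgfbrap1) were the 3 with an estimate below 0, and those without it (Vps18, Vps41 and Vps8) had estimates above 0. Of the 3 with the motif, Tgfbrap1 alone reached an unadjusted p under 0.05, and it held the motif at its downstream start only. The estimate of Vps16 was -0.0050 without knockdown array 2, and that of Vps33a was 0.0013 with array quality weights. The signs of Vps16 and Vps33a are thus not settled, and Vps11, Vps39 and Vps33b had no window to compare. Over the whole array, genes with CACGTG in a window had a median change of -0.0033 (1383 genes, 51.7% below 0), against -0.0013 for genes without it (11649 genes, 50.9% below 0). At an unadjusted limma p under 0.05, 4.63% of the genes with the motif were lower and 2.31% higher in knockdown cells, against 2.45% lower and 1.57% higher of those without it. Among the brighter genes the medians were -0.0084 with the motif (763 genes, 55.2% below 0) and -0.012 without it (5209 genes, 59.9% below 0). There 5.64% of the genes with the motif were lower and 3.15% higher at that level, against 3.28% lower and 1.25% higher of those without it, so the larger shares with the motif stood in both directions.

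Members were also compared directly in 3 pairs, as the difference between their relative signals on the same array. Tgfbrap1 with Vps39 and Vps8 with Vps41 hold equivalent positions in CORVET and HOPS. The last pair was Vps33b, of the CHEVI complex, with its relative Vps33a. Tgfbrap1 minus Vps39 was -0.063, -0.120 and -0.036 on the knockdown arrays and 0.264, 0.200 and 0.035 on the empty vector arrays. The groups did not overlap, with the ratio of the CORVET to the HOPS subunit lower on all 3 knockdown arrays. Its mean was -0.073 ± 0.043 in knockdown cells and 0.167 ± 0.118 with empty vector (SD, n = 3 each), a difference of -0.24 (exact two-sided permutation p = 0.1, 0.3 adjusted over the 3 pairs). The permutation test, which cannot go below 0.1 here, does not establish an unequal change. The difference is made of the estimates given above, -0.18 ± 0.05 (SE) for Tgfbrap1 and 0.06 ± 0.04 (SE) for Vps39. It is therefore no result separate from them.

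Vps8 minus Vps41, the other CORVET and HOPS pair, was -0.034, 0.031 and 0.039 on the knockdown arrays and 0.0085, -0.198 and -0.020 on the empty vector arrays. These values overlapped, and the difference was 0.08 (exact permutation p = 0.3, adjusted 0.4). Vps33b minus Vps33a was -0.028, 0.014 and 0.113 on the knockdown arrays and 0.075, -0.095 and -0.083 on the empty vector arrays, a difference of 0.07 with overlapping groups (exact permutation p = 0.4, adjusted 0.4). The differences of the 2 CORVET and HOPS pairs had opposite signs, and the exact permutation test cannot go below 0.1 with these arrays. The 95% intervals of the differences, from the spread of each pair's own 6 values and not adjusted over the 3 pairs, ran between -0.44 and -0.04 for Tgfbrap1 minus Vps39, between -0.11 and 0.27 for Vps8 minus Vps41 and between -0.12 and 0.26 for Vps33b minus Vps33a, so that the first alone excluded 0. When single arrays were left out, the first difference lay between -0.31 and -0.19. That of Vps8 minus Vps41 lay between 0.017 (without empty vector array 2) and 0.12 (without empty vector array 1), and that of Vps33b minus Vps33a between 0.028, with knockdown array 3 left out, and 0.12, with empty vector array 1 left out.

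**Figure D3:**
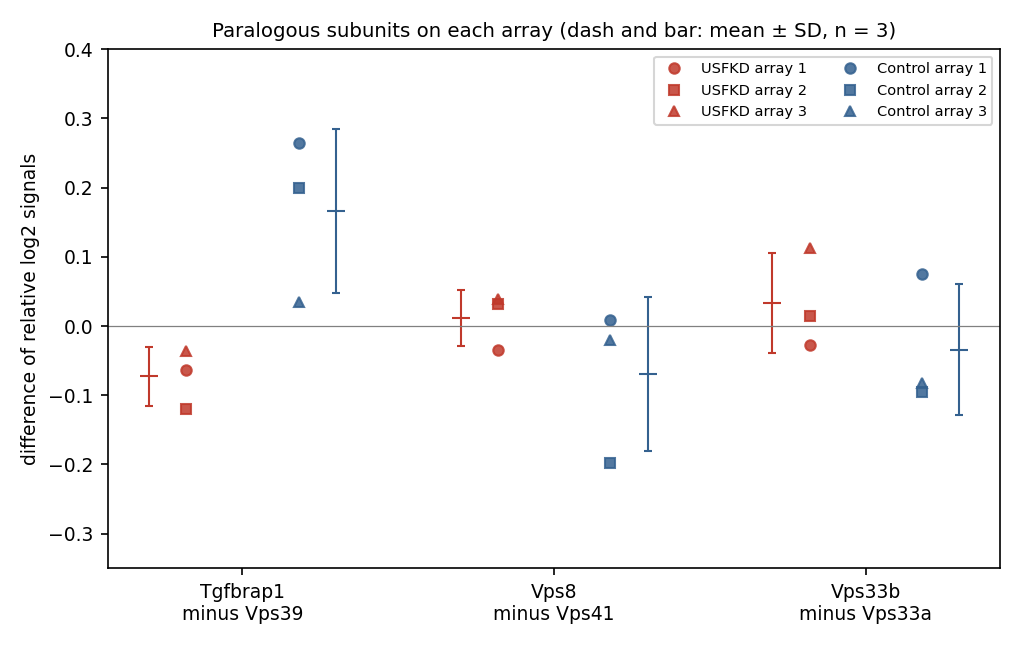
Difference of relative log2 signals within each of the 3 pairs (vertical axis) on each knockdown array (red, left) and each empty vector array (blue, right). The mean and SD (n = 3) are beside the points. For Tgfbrap1 minus Vps39 the knockdown points lie lowest, between -0.120 and -0.036 against 0.035 to 0.264.

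Proteins that act with HOPS or CORVET were examined as a list. Of 39 listed, 37 were measured and 0 passed in limma over all genes. At an unadjusted limma p under 0.05 there were 1 higher and 1 lower, against 1.6% and 2.65% of all genes. Without overlap between the groups, 3 genes lay above and 3 below, against 4.33% and 5.95% of all genes. Arl8a and Arl8b, the GTPases bound by Vps41, were not analysed here. The median change of the list was -0.018, and on knockdown array 2 its median against the empty vector mean was -0.065, where arrays 1 and 3 gave 0.015 and 0.0043.

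Among the GTPases, Rab7, which marks late endosomes and with which HOPS acts, had 0.13 ± 0.05 (SE, limma adjusted p = 0.996), and its knockdown values were all the higher ones. It was at an unadjusted p under 0.05. The early endosomal Rab5a, Rab5b and Rab5c, with which CORVET works, had -0.0084 ± 0.06, -0.018 ± 0.05 and -0.09 ± 0.04 (SE). Only for Rab5c among these did the groups not overlap, with the knockdown values lower. Among the SNAREs, Vti1b, which takes part in late endosome fusion, had -0.18 ± 0.07 (SE, limma adjusted p = 0.996), was also at an unadjusted p under 0.05, and had its knockdown values all lower. Its value on knockdown array 2, the array with the wide spread, was -0.275, and its change was -0.10 without that array and -0.080 with array quality weights. When each array was left out in turn, Vti1b was at an unadjusted p under 0.05 in 3 of 6 fits and Rab7 in 4 of 6. Stx17, Snap29 and Vamp8, the SNAREs of autophagosome fusion that HOPS assists, had -0.09 ± 0.05, -0.0090 ± 0.05 and -0.03 ± 0.08 (SE), with overlapping groups for each. Of the 15 exchange factors, effectors and other factors, 0 reached an unadjusted p under 0.05, and their changes lay between -0.11 (Vps45) and 0.05 (Mon1b). The PI 3-kinase subunits Pik3c3, Pik3r4, Uvrag and Rubcn, which make or control the lipid on which early endosomal tethers gather, lay between -0.06 and 0.04.

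**Figure D4:**
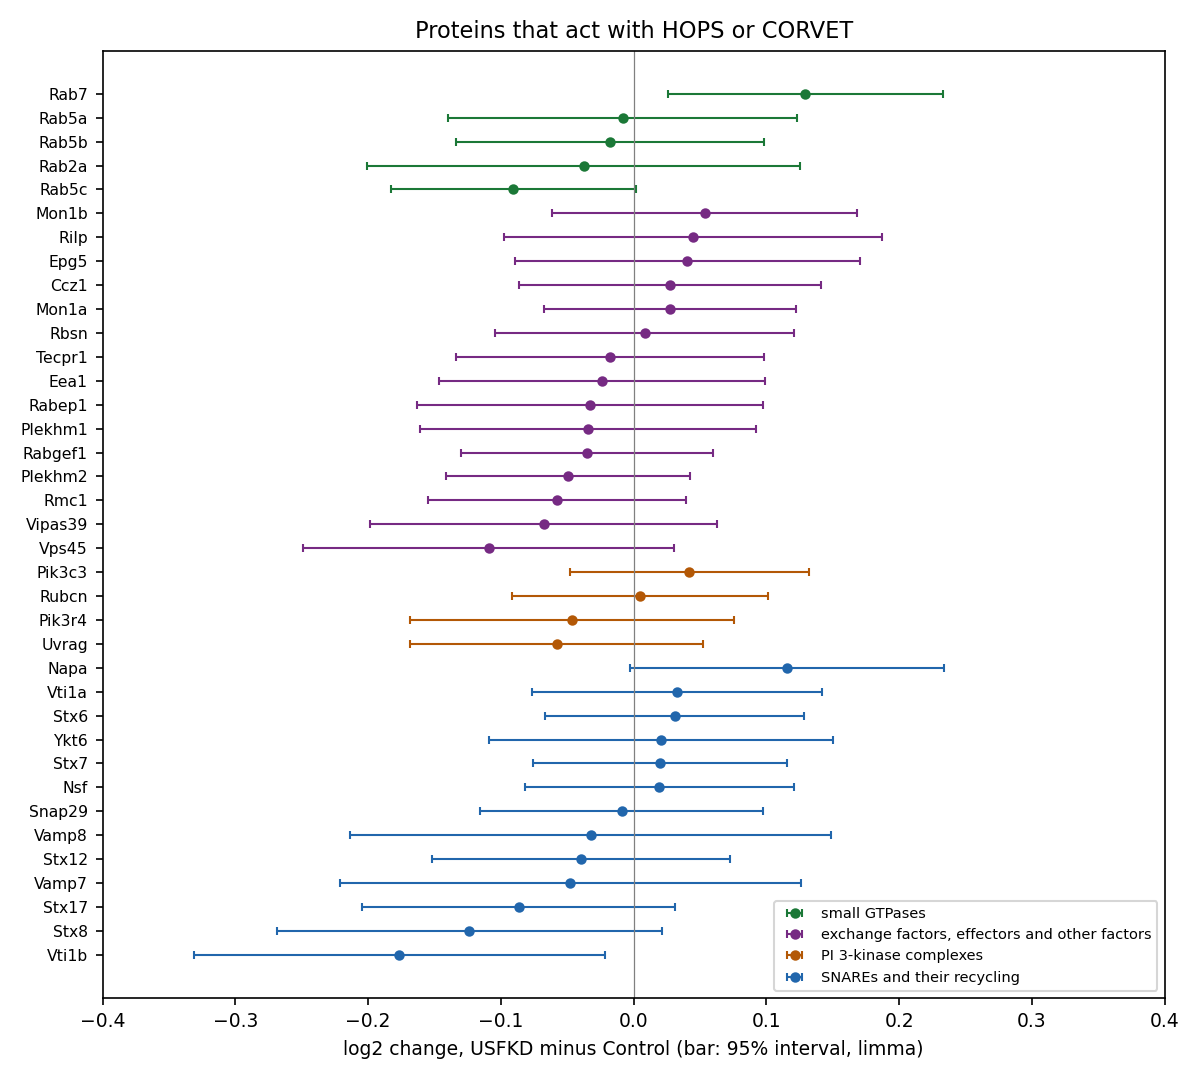
Change after knockdown (horizontal axis, log2, USFKD minus Control) of the 37 measured genes that act with HOPS or CORVET, by role, with 95% intervals from limma. The intervals of Rab7 (above) and Vti1b (below) exclude 0, and those of the other 35 genes include it.

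The genes whose values followed the mean of the 9 members most closely over the 6 arrays were Taf3 (Pearson r = 0.999, Spearman rho = 1), Fry (r = 0.987, rho = 0.886) and Ctr9 (r = 0.986, rho = 1). Those running most nearly opposite were Hoxb5 (r = -0.995, rho = -1), Aadacl4 (r = -0.988, rho = -1) and Brpf3 (r = -0.984, rho = -0.886). These are the extremes of 16574 genes over 6 points that share array and normalization, and are given as a description. The mean they were set against was 0.014, -0.018 and 0.018 on the knockdown arrays and -0.00042, -0.048 and 0.0059 on the empty vector arrays, so it varied little.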

How the data were processed

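Signals from 6 Affymetrix Mouse Gene 1.0 ST arrays were used, 1 per sample. Per the labels' protocols, cDNA was made with an Ambion WT kit and end-labelled with an Affymetrix one. Groups and replicate numbers came from the sample titles. The authors deposited 1 table of 22891 transcript clusters, read here as log2 values relative to each cluster's median over the 6 arrays (largest absolute median 5e-07). That scale was inferred from the rounding of the numbers. How background and arrays were corrected is not given in the sources used here. Rounding steps of 4.77e-07 (numbers from 4 to 8) or 9.54e-07 (8 to 16), within 0.05 of a step, gave the dimmer and brighter classes. A dim cluster can meet the coarser step by chance, and 16 clusters had no class.

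Clusters with 1 symbol (18087, of which 18023 matched RefSeq by Entrez identifier and 0 changed symbol) were averaged per gene. Changes are knockdown minus empty vector, from linear models with moderated variances (limma 3.58.1, R 4.3.3), adjusted by Benjamini-Hochberg over 16583 genes with a threshold of 0.05 (4 residual and 3.79 prior degrees of freedom). Precision is limited by having 3 arrays per group, and the standard error of a change had a median of 0.0561. Permutation tests, motif counts and figures used Python 3.11.15, SciPy 1.17.1 and matplotlib 3.10.9.

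The members, the partner list (written from textbook knowledge) and the tests were chosen with earlier results of these data known. Named genes are every member, both targets, partners at an unadjusted p under 0.05, and the 3 genes most like and the 3 most unlike the members' mean. Vipas39, Rab5a, Rab5b, Rab5c, Stx17, Snap29, Vamp8, the PI 3-kinase subunits, Vps45 and Mon1b are named in addition, for their role or as the ends of a range, as are the cell type markers Th, Dbh and Kdr and the listed partners Arl8a and Arl8b. A planned comparison of the members' protein sequences was not made. Same-numbered arrays of the groups did not deviate together (correlations of deviations -0.023, 0.045 and 0.035), so the replicate number was not used as a block. Alternatives were leaving out each array, the replicate block, quantile normalization, centring of arrays, array quality weights, a robust prior, the brighter class alone, clusters fitted on their own and an unmoderated model.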

Additional observations from a re-analysis of the deposited data

How the results depend on the processing

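In each of the 14 alternative fits but 1, 0 members and 0 partner genes passed the threshold over all genes. The exception was the fit with array quality weights, where 1 member (Tgfbrap1, -0.15, limma adjusted p = 0.0259) and 2 partner genes (Rab7 and Rab5c) passed, beside 1111 of all genes. Its weights were 33.0, 0.136 and 0.441 on knockdown arrays 1, 2 and 3, so the knockdown mean was in effect that of 1 array, and the estimation of the weights stopped before it converged. In that fit Usf1 was at -0.62 and Usf2 at -0.46, both past the threshold, 4 members, 9 partner genes and 4356 of all genes were at an unadjusted p under 0.05, and Vps33a turned to 0.0013. The single gene called over all genes was lost (0 calls) with the replicate block, with the unmoderated model, and when empty vector array 1, 2 or 3 or knockdown array 1 was left out. Members at an unadjusted p under 0.05 numbered 1 with the unmoderated model and 1 or 2 without 1 array, Tgfbrap1 each time. Partner genes at that level numbered 4 of 28 in the brighter class alone, 4 of 37 with the unmoderated model and 0 to 3 without 1 array. All genes at that level numbered 563 of 7320 in the brighter class alone and 809 of 16583 with the unmoderated model. Without 1 array they numbered 369 to 1248. Members whose groups did not overlap numbered 3 to 6 without 1 array, where 16.1% to 23.9% of all genes had no overlap. The highest count came without empty vector array 3 (16.1% of all genes). Counts of 3 or 4 came with 16.8% to 23.9%. Vps33b lay between -0.013 and 0.084 without 1 array, turning negative without empty vector array 2 (-0.013) or knockdown array 3 (-0.0026). The cause of these shifts was not tested, and the fits without 1 array also had fewer arrays. With the replicate block the count of members at an unadjusted p under 0.05 stayed at 2, and no call of a member changed. Quantile normalization and centring of arrays turned the sign of no member. The arrays give no level and no background reading, so how far Vps18, in the dimmer class, could show a change is not known.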
